A study of Arabidopsis thaliana with 4 samples.

Results

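The genes described here encode small secreted peptides, either cysteine-rich proteins or precursors of short signalling peptides. They were chosen by gene symbol, as genes named LCR, SCRL, PDF1., PDF2., PDF3., RALFL, RALF, CLE, IDL, EPFL, RTFL, DVL, PSK, PSY or CEP followed by a number, that had an array probe listing that gene alone and a value on all 4 arrays. Of 5386 genes measured in this way, 7 belong to these families, each with 1 probe. The rule itself names no measured ratio, but it was set with earlier results of these data known, so the choice was not independent of them. They are CLE26, CLE27 and CLE40 (AT1G69970, AT3G25905 and AT5G12990), RALFL27, RALFL32 and RALFL34 (AT3G29780, AT4G14010 and AT5G67070) and LCR26 (AT4G29290). The gene table held 216 gene names of these families that were considered, of which 13 further genes stood only on probes shared with other genes and 196 had neither kind of probe. The measured members are 3 of 30 CLE genes, 3 of 31 RALFL genes and 1 of 81 LCR genes. The SCRL family, with 28 genes, and the RTFL family, with 22, had 0 measured members, as did the PDF1., PDF2., RALF, IDL, DVL, PSK, PSY and CEP families, and EPFL and PDF3. matched 0 symbols of the gene table. The 7 genes therefore do not speak for those families.

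Inflorescences of Arabidopsis thaliana pistillata mutants were compared with inflorescences of wild-type plants. PISTILLATA is a MADS-box factor of the B class, and mutant flowers form sepal-like organs and carpel tissue in place of petals and stamens. Total RNA of both genotypes was hybridised together on each of 4 spotted oligonucleotide arrays, so that every value is the log2 of a ratio between the genotypes. The labels name the mutant and the wild type without an allele, a background strain, an age or a number of pooled plants, and none says that the 4 arrays hold separately grown plants, so that the spread behind each p-value is one between arrays and may be technical only.

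CLE genes encode precursors from which a short peptide is cut, secreted and read by leucine-rich repeat receptor kinases. The founding member, CLAVATA3, limits the size of the stem cell pool in shoot and flower meristems. RALF peptides are cysteine-containing ligands of receptor kinases of the FERONIA family and act on cell wall growth and on pollen tubes. LCR proteins are defensin-like proteins, named for their low molecular weight and their cysteines, and were recognised by their resemblance to pollen coat proteins of Brassica that take part in the contact of pollen and stigma. Stamens, pollen and pistil are therefore tissues in which such peptides have been studied, and pistillata flowers keep the pistil but not the stamens.

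The labels did not settle which genotype is the numerator of the ratios. Across 25018 gene probes without a value at the limit of the table, the deposited ratios of arrays 1 and 3, which carry the same labelled channel order, had r = -0.68, and those of arrays 2 and 4 had r = -0.68. Over all 26156 probes with 4 values, those at the limit included, these correlations were weaker, at -0.29 and -0.054. Arrays 1 and 4 were multiplied by -1, which puts the anther genes SWEET8, SHT, ATA20 and TUA1 on the wild-type side, at mean log2 ratios from -3.71 to -0.47. All ratios in the text divide pistillata by wild type in this likely direction, on the log2 scale. With the sign of all 4 arrays exchanged, every higher value becomes a lower one of the same size, and CLE27, for example, would stand at -0.88. The median log2 ratio over the 5386 genes was 0.16 and not 0, and 68.8% of the genes had a mean above 0. A median near 0.16 is therefore the level against which small positive values have to be read. The ratios come without channel intensities, and how abundant a transcript was is therefore unknown. In whole inflorescences, fewer cells of a type and less RNA per cell cannot be told apart.

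Among the peptide genes, CLE27 was higher in pistillata inflorescences, and the other 6 did not pass the test. In the fit over all genes with limma's moderated test and Benjamini-Hochberg adjustment, 1 of the 7 had an adjusted p under 0.05, where 8.54% of all genes did in either direction and 2.75% did as higher. No peptide gene changed at least 2-fold, and 0 of 7 passed as lower, where 5.79% of all genes did. At an unadjusted p under 0.05 there were 2 of 7, CLE27 and RALFL34, both higher, against 30.8% of all genes in either direction and 20.3% as higher. The mean log2 ratios ran from -0.05 for RALFL32 to 0.88 for CLE27, with a median of 0.34 beside 0.16 for all genes. Of the 7 genes, 5 were above 0 on all 4 arrays, as were 30.8% of all genes. With so few genes these shares describe the members and give no measure of the families.

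**Figure D1:**
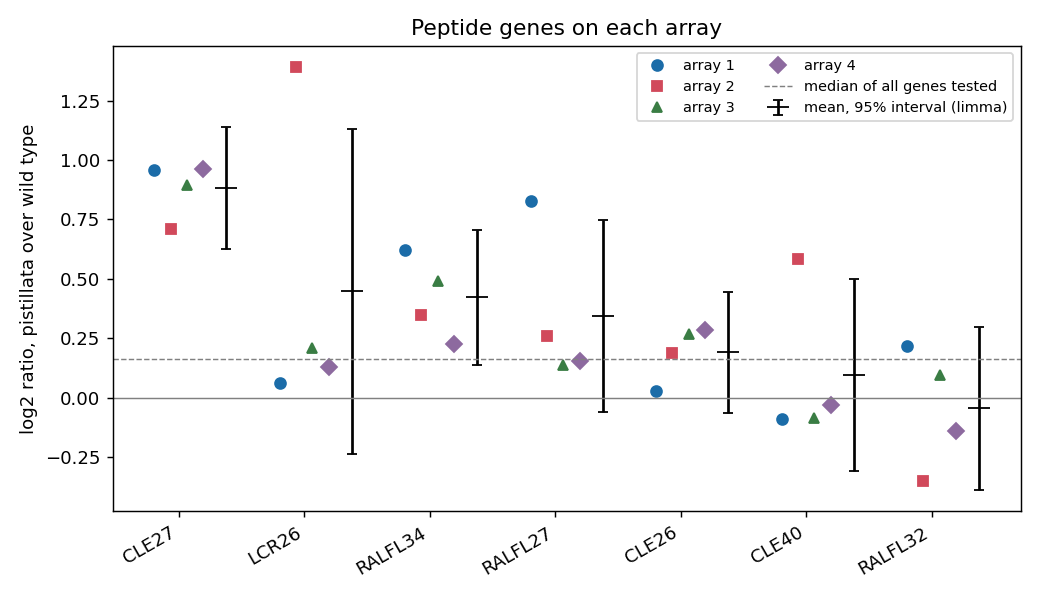
Log2 ratio of pistillata over wild type (vertical axis) for each of the 7 peptide genes on arrays 1 to 4 (points), with the mean and its 95% interval by limma (black) and the median of all genes tested (dashed). CLE27 lies between 0.71 and 0.96 on all arrays, while LCR26 and CLE40 each have 1 value, on array 2, far above their 3 others.

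CLE27 had log2 ratios of 0.96, 0.71, 0.90 and 0.96 on arrays 1 to 4. All arrays lay on the same side and within a narrow span, and array 2 was the lowest. The mean was 0.88 ± 0.12 (SD, n = 4), a 1.84-fold higher level in pistillata with a 95% interval of 1.54 to 2.2-fold, and limma gave an adjusted p of 0.0109. Only 7.43% of all genes had a smaller SD over the arrays, and 94.7% had a lower mean. Relative to the median of all genes CLE27 stood 0.72 log2 units higher. The call depends on the number of arrays. With arrays 1, 2, 3 and 4 left out in turn, the adjusted p by limma was 0.0470, 0.0530, 0.0684 and 0.0538, while the log2 ratio stayed between 0.86 and 0.94.

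The gene next to CLE27 in the gene table, HMT-1 (AT3G25900), a homocysteine methyltransferase, also had its own probe and served as a local comparison, added after the values were seen. Its log2 ratios were -0.06, 0.09, -0.08 and -0.19 on arrays 1 to 4, close to 0 and on both sides of it. The mean was -0.06 ± 0.11 (SD, n = 4; limma adjusted p = 0.694). CLE27 exceeded HMT-1 on every array, by a mean of 0.94 log2 units with a 95% interval of 0.58 to 1.3, taken here and for the pairs below from the spread of the 4 differences. An exact two-sided sign-flip permutation test gave p = 0.125, the smallest value that 4 arrays allow, and an adjusted p of 0.175 over the 7 pairs compared here and below. The gene on the other side, AT3G25910, had no probe of its own with 4 values.

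CLE26, a CLE gene known for restraining root growth when its peptide is applied, had log2 ratios of 0.03, 0.19, 0.27 and 0.28 on arrays 1 to 4. All were above 0, and their mean of 0.19 ± 0.12 (SD, n = 4) lay 0.03 above the median of all genes. Limma gave an adjusted p of 0.25, with a 95% interval of -0.06 to 0.45 on the log2 scale. CLE27 exceeded CLE26 on 4 of 4 arrays, by 0.69 log2 units (95% interval 0.41 to 0.97; exact two-sided sign-flip permutation p = 0.125, adjusted p = 0.175). The test could not pass 0.05 with 4 arrays, and the smallest difference on any array was 0.52.

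CLE40, the close relative of CLAVATA3 that acts in the root meristem, had log2 ratios of -0.09, 0.58, -0.09 and -0.03. Array 2 stood apart from the other 3, which were slightly below 0. The mean of 0.09 ± 0.33 (SD, n = 4) was not called (limma adjusted p = 0.697), and its sign turned to -0.07 without array 2 and to -0.02 when each array was centred on its median. CLE27 exceeded CLE40 by 0.79 log2 units with a 95% interval of 0.09 to 1.49, and on array 2 by only 0.13 (exact permutation p = 0.125, adjusted p = 0.175). CLE26 and CLE40 differed by 0.10, with an interval of -0.45 to 0.65 and a difference above 0 on 3 of 4 arrays (exact permutation p = 0.625).

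CLAVATA3 itself (CLV3, AT2G27250), outside the symbol rule but of the same peptide class, was measured as well. Its log2 ratios were 0.12, 0.40, 0.09 and 0.44 on arrays 1 to 4. All were above 0, with a mean of 0.27 ± 0.18 (SD, n = 4; limma adjusted p = 0.19) that lay 0.10 above the median of all genes. The meristem peptide was thus not called in either direction, and its interval of -0.03 to 0.56 reaches a 1.47-fold higher level.

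RALFL34, a RALF peptide of lateral root initiation that signals through THESEUS1, a relative of FERONIA, came nearest to a call after CLE27. Its log2 ratios were 0.62, 0.35, 0.49 and 0.23 on arrays 1 to 4. Each was above the median of all genes, with array 4 the lowest. The mean was 0.42 ± 0.17 (SD, n = 4), 1.34-fold with a 95% interval of 1.1 to 1.63-fold. Limma gave an unadjusted p of 0.0129 and an adjusted p of 0.0868, which misses the threshold. With each array centred on its median the log2 ratio was 0.31 (limma adjusted p = 0.179). With 1 array left out the adjusted p by limma ran from 0.132 to 0.240. In the gene table RALFL34 lies between HEC1, a transcription factor of the pistil's transmitting tract and stigma, and MAPKKK19, and both had no probe of their own with 4 values.

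RALFL27 had log2 ratios of 0.83, 0.26, 0.14 and 0.15. Array 1 was well above the 3 others, which lay near the median of all genes. The mean of 0.34 ± 0.33 (SD, n = 4; limma adjusted p = 0.207) was 0.18 without array 1. Its neighbours on either side in the gene table, AT3G29779 and AT3G29781, are annotated as pseudogenes and had no such probe.

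RALFL32 was the lowest of the 7, with log2 ratios of 0.22, -0.35, 0.09 and -0.14 on arrays 1 to 4. The arrays were divided evenly around 0. The mean of -0.05 ± 0.25 (SD, n = 4; limma adjusted p = 0.828) had a 95% interval of -0.39 to 0.30 and turned to 0.06 without array 2. AT4G14020, beside it in the gene table, scattered more widely, from -1.0 on array 3 to 0.78 on array 4 (mean -0.11, limma adjusted p = 0.846).

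Within the RALF-like genes, RALFL34 exceeded RALFL32 on all 4 arrays, by 0.47 log2 units (95% interval 0.22 to 0.71; exact two-sided sign-flip permutation p = 0.125, adjusted p = 0.175). RALFL27 exceeded RALFL32 on all 4 as well, by 0.39 with an interval of -0.05 to 0.83 (exact permutation p = 0.125). RALFL34 and RALFL27 differed by 0.08, with an interval of -0.29 to 0.44, and the sign of the difference was not the same on all arrays (exact permutation p = 0.625).

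FERONIA (FER, AT3G51550), the receptor kinase that binds RALF peptides, had a probe of its own. Its log2 ratios were -0.43, -0.20, -0.36 and -0.04 on arrays 1 to 4. All were below 0, with a mean of -0.26 ± 0.17 (SD, n = 4). Of the RALF-like genes, RALFL34 and RALFL27 had means above 0 and RALFL32 had a mean below 0, and none was called. Limma gave an adjusted p of 0.19 and an interval of -0.55 to 0.03, so the receptor was not called.

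LCR26, the defensin-like gene, had log2 ratios of 0.06, 1.39, 0.21 and 0.13 on arrays 1 to 4. Array 2 alone was beyond 2-fold, and the other 3 arrays lay near the median of all genes. The mean of 0.45 ± 0.63 (SD, n = 4) was second to CLE27 but was not called (limma adjusted p = 0.3), and it was 0.13 without array 2. Its SD exceeded that of 85.1% of all genes, whereas the median SD of all genes was 0.29. In the gene table LCR26 stands between LCR24 and LCR27, so that a row of related cysteine-rich genes surrounds it. Neither neighbour had a probe of its own with 4 values, and whether the LCR26 probe also binds their transcripts was not tested.

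**Figure D2:**
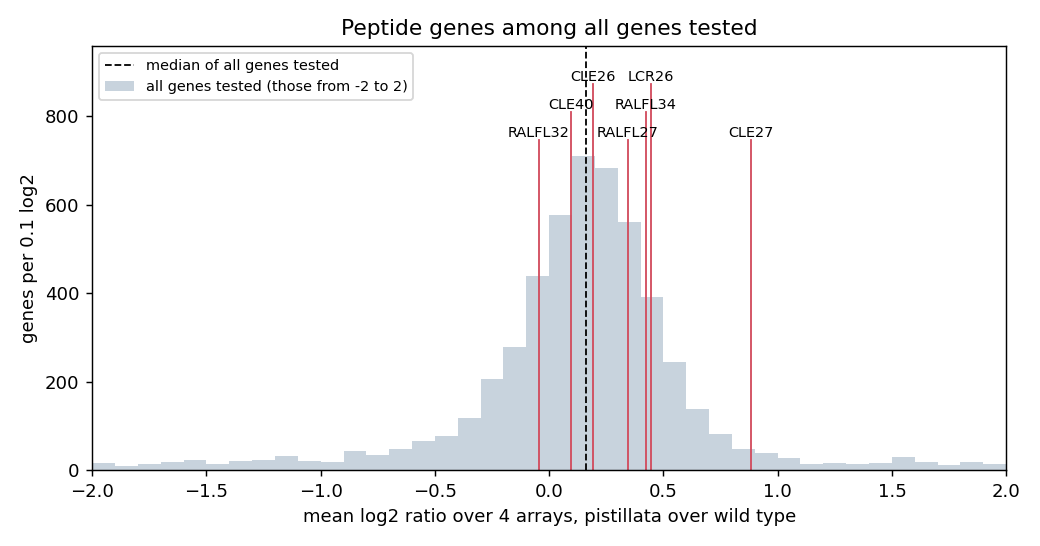
Number of genes (vertical axis) by mean log2 ratio of pistillata over wild type in steps of 0.1 (horizontal axis, shown from -2 to 2), with the 7 peptide genes as red lines and the median of all 5386 genes dashed. CLE27, at 0.88, lies in the right flank, and the other 6 lie between -0.05 and 0.45 within the central mass.

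None of the 28 values of the 7 genes lay at the limit of the table, a ratio of 100 in either direction, so none was cut off there. Without channel intensities, ratios of weak signals cannot be recognised among them. On arrays 1, 3 and 4 CLE27 was the highest of the 7, and on array 2 LCR26 was. The median of the 7 genes was 0.22, 0.35, 0.21 and 0.15 on arrays 1 to 4. The limma intervals of the 6 genes below CLE27 overlap one another. The interval of CLE27, from 0.63 to 1.14, also overlaps those of LCR26, RALFL27 and RALFL34, which end at 1.13, 0.75 and 0.71. It lies above those of CLE26, CLE40 and RALFL32.

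A further 11 probes with 4 values list a CLE, RALFL or LCR gene together with at least 1 other gene, and such a probe names none of them. None passed the adjusted p of 0.05 in the limma fit over 26156 probes (0 of 11), where 10.2% of probes did, and 1 of 11 had an unadjusted p under 0.05, where 30.6% did. The 1 probe that lists a CLE gene had the lowest adjusted p, 0.0781, at a log2 ratio of 0.45 ± 0.18 (SD, n = 4). The 7 probes that list LCR genes had means from -0.06 to 0.40, with SDs of up to 1.3. The 3 probes that list RALF-like genes, and no other kind, ran from -0.87 to 0.38. The lowest of these had values of -2.27, -0.04, -0.76 and -0.42 on arrays 1 to 4, all below 0 and far apart from each other (limma adjusted p = 0.214).

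Other secreted peptides of flowers and the receptors of the CLE, RALF and related peptides were described from lists of names. Of 58 names in the list of other secreted peptides, 4 were measured, CLV3, GRI, EC1.1 and EC1.5. All 4 had means above 0, with a median log2 ratio of 1.04, where 68.8% of all genes had a mean above 0 and their median was 0.16. By limma 1 of the 4 passed as higher, against 2.75% of all genes, and 3 had an unadjusted p under 0.05, against 30.8%. A list of 4 measured genes gives no share that could be set apart from these. GRI (AT1G53130), the precursor of a peptide of extracellular cell death, had log2 ratios of 1.47, 1.84, 1.82 and 2.75. Every array was beyond 2-fold, and the mean was 1.97 ± 0.55 (SD, n = 4; limma adjusted p = 0.0125), with an adjusted p of 0.0559 without array 2 and 0.0568 without array 3.

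EC1.1 and EC1.5 (AT1G76750 and AT5G64720) encode small cysteine-rich proteins that the egg cell secretes when sperm arrive, and egg cells lie in the ovules of the pistil, which pistillata flowers keep. Whether the kept pistil bears on their ratios was not tested. The ovule marker INO, described below, had a mean of -0.20 that was not called (limma adjusted p = 0.288). It averages probes that differed and was the only measured name of 10 on the carpel and ovule list, so it gives no firm comparison. EC1.1 had log2 ratios of -0.29, 1.76, 1.89 and 1.28 on arrays 1 to 4. EC1.5 had -0.04, 1.23, 1.44 and 1.03. Both genes were beyond 2-fold on arrays 2, 3 and 4 and slightly below 0 on array 1. Their means of 1.16 ± 1.0 and 0.91 ± 0.66 (SD, n = 4 each) were not called by limma (adjusted p = 0.138 and 0.108). Without array 1 the means were 1.64 and 1.23, and both passed (limma adjusted p = 0.0341 and 0.0350). Without array 2, 3 or 4 neither passed. The limma adjusted p was then 0.327, 0.305 and 0.261 for EC1.1 and 0.279, 0.252 and 0.219 for EC1.5.

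**Figure D3:**
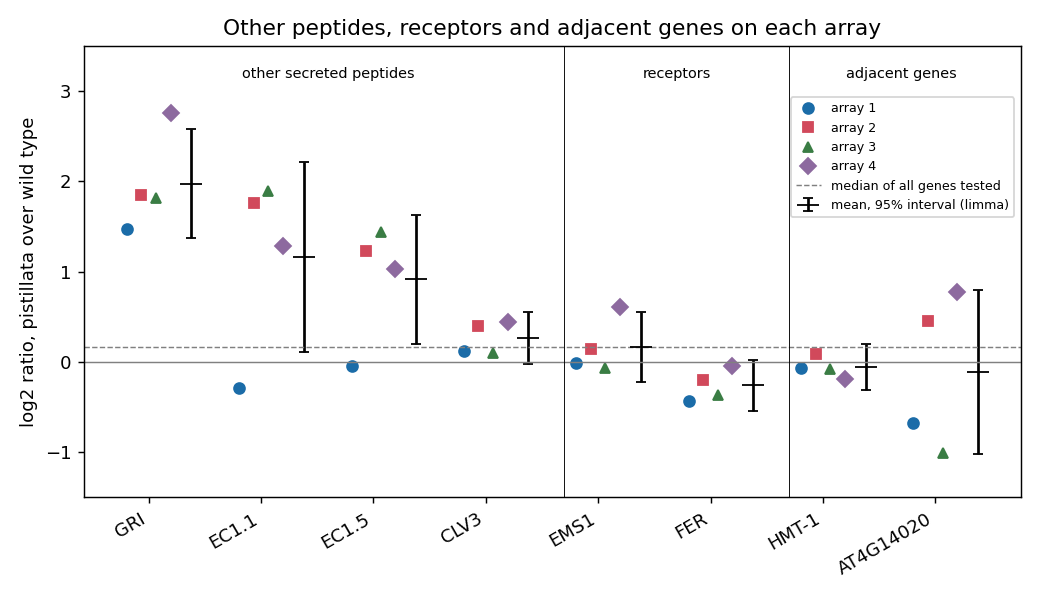
Log2 ratio of pistillata over wild type (vertical axis) on arrays 1 to 4 (points) for the other secreted peptide genes, the receptor genes and the measured genes adjacent to CLE27 and RALFL32, with mean and 95% interval by limma. GRI exceeds 1 on every array, and EC1.1 and EC1.5 do so on arrays 2, 3 and 4 but lie below 0 on array 1.

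Of 51 names in the list of receptors and processing enzymes, 2 were measured, FER and EMS1, and 0 passed in limma's test over all genes, with 0 at an unadjusted p under 0.05. With 8.54% and 30.8% of all genes past these thresholds, 0 of 2 is near the background. EMS1 (AT5G07280), the receptor kinase that reads the peptide TPD1 in the young anther, had log2 ratios of -0.01, 0.14, -0.07 and 0.61, on both sides of 0. Its mean was 0.17 ± 0.31 (SD, n = 4; limma adjusted p = 0.465), beside a median of 0.16 for all genes, and it was 0.019 without array 4. Markers of the flower's parts were sparse. SWEET9, the nectary sugar transporter, was at -4.88 and INO, a factor of the ovule integument, at -0.20 (limma adjusted p = 0.00112 and 0.288). The value of INO averages more than 1 probe, and these differed. In the fit over all probes, its probe with the highest adjusted p was at -0.54 (limma adjusted p = 0.158). Another INO probe must then lie above the average of -0.20, with an adjusted p no higher than that. Its value is not given here, so the direction of INO is not settled. Of the lists for tapetum and pollen wall, pollen, petal and scent, nectary, and carpel and ovule, 3 of 21, 1 of 8, 0 of 2, 1 of 3 and 1 of 10 names were measured. The stamen markers were part of setting the direction of the arrays, and whether a loss of stamen RNA moves the ratio of CLE27 was not tested.

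**Figure D4:**
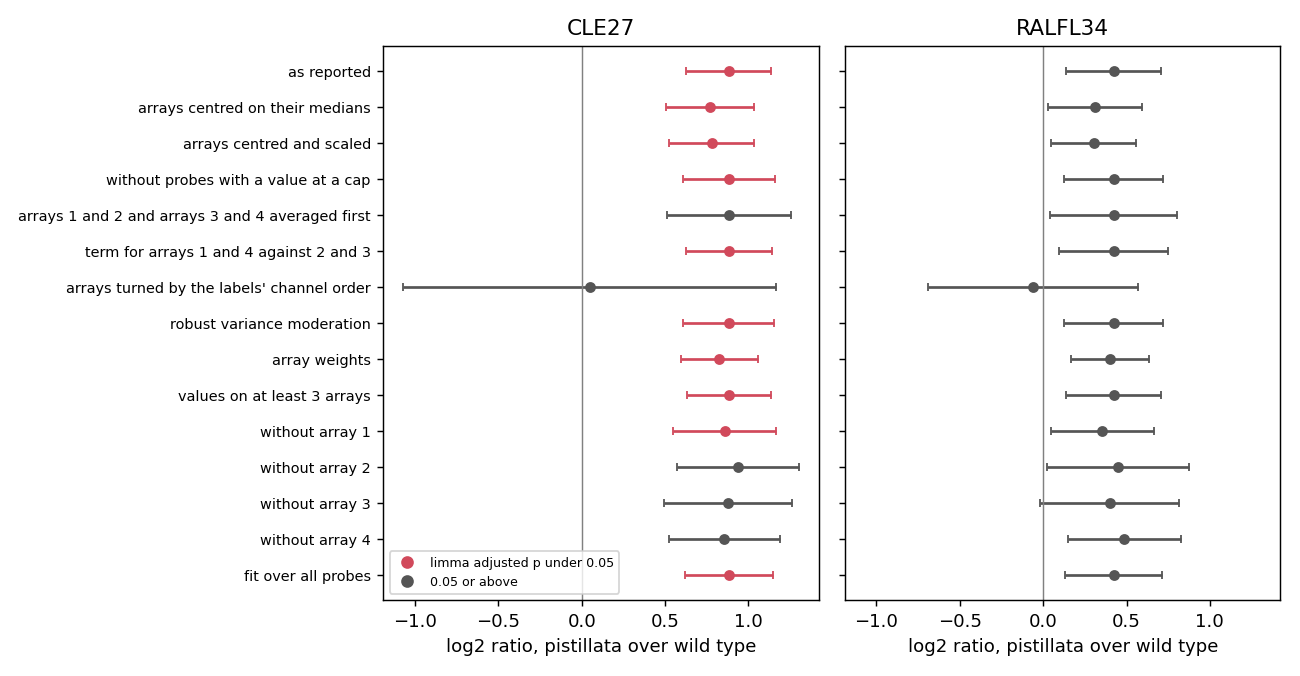
Mean log2 ratio of pistillata over wild type with its 95% interval (horizontal axis) for CLE27 (left) and RALFL34 (right) as reported and under 14 other settings (rows), red where the limma adjusted p was under 0.05. CLE27 stays between 0.77 and 0.94 except where arrays are turned by the labels' channel order, and RALFL34 is not called in any row.

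CLE27 had the highest mean of the 7 genes as reported and with the arrays centred or centred and scaled. Its log2 ratio was 0.77 with each array centred on its median (limma adjusted p = 0.0166), a step that moved the median of all genes to 0.05. It was called in the fit over all probes as well (limma adjusted p = 0.00992). When arrays 1 and 2 and arrays 3 and 4 were averaged first, the mean was the same and the adjusted p by limma was 0.0945. When the channel order of the labels set the turning, the ratio was 0.047, and 0 of all 5386 genes passed by limma in that arrangement, with 18 at an unadjusted p under 0.05.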

How the data were processed

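The authors deposited log2 ratios of the 2 channels of each of 4 spotted arrays. Per the labels, processing and normalization of these log2 values followed an earlier publication. The dyes, the numerator, the background correction and the centring are, in the sources used here, not given. The table ends at 6.64 and at -6.64, which is a ratio of 100 in log2 and gave the scale. Per array, the medians over gene probes as deposited were -0.12, 0.14, 0.11 and -0.08.

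Of 26933 rows, 459 empty and control spots were left out. Genes were named from probes that list 1 gene in the supplied platform annotation (5784 of 26474 gene probes, against 7497 listing several and 13193 listing none). Of 5443 genes so named, 5415 matched the gene table of assembly TAIR10.1, used for names and neighbours. One further gene is not reported here. Probes of a gene with values on all 4 arrays were averaged, and 5386 genes were fitted with limma 3.58.1 in R 4.3.3 (lmFit with an intercept, eBayes, two-sided, Benjamini-Hochberg over all genes, threshold 0.05). The code of the test was tried on simulated data with independent arrays and most genes centred on 0. The real ratios have a median of 0.16 and the arrays may be technical repeats, so that trial does not bear on the calls here. Differences between members were tested by exact sign-flip permutation in scipy 1.17.1. The number of arrays, 4, limits the precision.

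The members and lists were chosen with earlier results of these data known. The genes named are the members, the called genes and extremes of each list, the genes that set the direction, and, added after values were seen, CLE27's and RALFL32's measured neighbours and 2 tissue markers. Alternatives were other centrings, caps left out, a fit over probes, pairs of arrays averaged, a channel term, the labels' channel order, robust moderation, array weights, an adjusted p of 0.01, values on at least 3 arrays and leaving out each array.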

Additional observations from a re-analysis of the deposited data

Results flagged for a closer look

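On array 2 the log2 ratio of LCR26 was 1.39, whereas its 3 other arrays lay between 0.06 and 0.21. The gap to the nearest value was 0.891 of the range of the 4 values. CLE40 had 0.58 on array 2, and its 3 other arrays lay between -0.09 and -0.03, with a gap of 0.908 of the range. These were 2 of 21 sets of 4 values examined in this way by Dixon's test, past whose 95% limit chance puts about 1 in 20. Both values come from the same array. TUA1, one of the genes that set the direction, and RALFL27 came close to the limit on array 1, at 0.828 and 0.818 of their ranges.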

How the results depend on the processing

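CLE27 was above 0 under all 15 alternatives run, but not all of them could move its mean. Its mean was fixed at 0.88 with caps left out, pairs averaged, a channel term, robust moderation, at least 3 values or all probes. The adjusted p of 0.01 changed only the threshold. With centring, array weights or 1 array left out, the mean moved within 0.77 to 0.94. With the labels' channel order it was 0.047, with a limma interval of -1.07 to 1.16, which spans 0. Of the 7 peptide genes, 1 passed, except as follows. In 3 of the 4 fits that leave out 1 array none passed (0 to 1 over those fits). None passed either with arrays 1 and 2 and arrays 3 and 4 averaged first, the labels' channel order or an adjusted p of 0.01. The list of other secreted peptides had 1 call, which became 0 under the same 3 changes, 3 with array weights and 0 to 3 when 1 array was left out. The genes called in all moved with these settings, at 460 of 5386 (8.54%) as reported, 144 (2.67%) with arrays averaged, 0 with the labels' channel order, 164 at an adjusted p of 0.01, 760 (14.1%) with array weights, 726 of 5154 without probes at a cap and 180 to 235 (3.34% to 4.36%) with 1 array left out. Of the genes called, 148 were higher and 312 lower as reported, and 76 and 353 with arrays centred on their medians. The receptor list had 0 calls throughout. Turning the arrays by the labels' channel order reversed CLE40 to -0.15, LCR26 to -0.28, RALFL27 to -0.20, RALFL32 to 0.022, RALFL34 to -0.062, FER to 0.056, SWEET8 to 0.16, TUA1 to 0.11, SWEET9 to 0.038 and INO to 0.0015. Centring on the medians turned CLE40 to -0.018. Leaving out 1 array gave CLE40 -0.069 to 0.16, RALFL32 -0.13 to 0.056 and AT4G14020 -0.41 to 0.19. With array weights LCR26 was at 0.73, still not called (limma adjusted p = 0.144). The cause of these shifts was not tested. Each array holds both genotypes, so each ratio is already a paired comparison, and the test of the mean ratio against 0 uses that pairing. No further pairing between arrays was made, because the samples form 1 group. Without signal strengths, what low signal limits is unknown.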
